A study of Homo sapiens with 20 samples.

Results

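The sites described here were open chromatin in SW872 cells carrying YAP5SA and in none of the other 6 cell populations of the study, as far as the peak lists show. Overlapping peaks of the 7 lists, 1 for each vector, were merged into 372133 sites. A site was taken when it held a YAP5SA peak and no peak of the other lists, with 1 shared bp counting as overlap. There were 39242 such sites, each of them a single peak of the YAP5SA list, and they made up 17.0% of its 230886 peaks (Wilson 95% interval 16.8% to 17.2%). The peak lists chose the sites, so their number, strength and width are given as descriptions without a test.

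SW872 is a human liposarcoma cell line. Its cells were transduced with pBabeNeo retroviral vectors and selected as pooled stable lines, so all groups share the vector backbone and the selection. The 7 groups were empty vector (EV), TAZ4SA, YAP5SA, full-length CAMTA1, full-length TFE3 and the fusion genes TAZ-CAMTA1 and YAP-TFE3. YAP5SA and TAZ4SA are YAP and TAZ in which 5 and 4 serines that the LATS1/2 kinases phosphorylate were changed to alanine. TAZ-CAMTA1 and YAP-TFE3 are the fusions of epithelioid hemangioendothelioma, a vascular sarcoma. The inserted proteins carried a Flag tag and were expressed from the vector, above whatever YAP and TAZ the cells make themselves. The libraries of the YAP-TFE3 list are titled Yap5SA-TFE3, and the third EV library is titled a redo. Of 20 libraries, TFE3 had 2 and each of the other 6 vectors had 3, but each vector has 1 peak list. No value per library could be taken from the lists, so no difference below has a replicate error and no test between vectors was possible. Intervals on shares cover counting error only, and the sequencing depth of the libraries is unknown.

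YAP and TAZ are coactivators at the end of the Hippo pathway. Phosphorylation by LATS1/2 holds them in the cytoplasm, and without it they enter the nucleus and reach DNA through TEAD transcription factors, mostly at enhancers far from promoters. The assay for transposase-accessible chromatin (ATAC-seq) inserts sequencing adapters where DNA is not covered by nucleosomes, so a peak marks an open stretch such as an active promoter or enhancer. The question put to these sites is where chromatin was called open with hyperactive YAP and with no other vector. The lists use the human build GRCh37/hg19. No annotation or sequence of that build was used here, so sites are given by position and not by gene or motif.

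Most of the sites found only in YAP5SA were small and weak. The peak caller Genrich gives each peak the area under its curve of −log10 p, here called the area, with a minimum of 20. It also gives the −log10 p at the summit, its highest point. Over the 39242 sites the median area was 41.1, and from the 5th to the 95th percentile the area ran from 21.3 to 206. The highest area was 2157. The median summit −log10 p was 3.96, with a highest value of 10.8. The median width was 98 bp, from 58 bp at the 5th to 283 bp at the 95th percentile, and the widest site spanned 1273 bp. YAP5SA peaks that met 1 to 5 of the other lists had a median area of 83.4, a median summit of 4.44 and a median width of 138 bp. At sites in all 7 lists the YAP5SA peaks had medians of 416, 6.43 and 361 bp. The median area of a YAP5SA peak rose with every list added, from 41.1 in 1 list to 56.6, 65.2, 75.2, 92.2, 126 and 416 in 2 to 7 lists.

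The share of YAP5SA peaks that no other list held fell at each step of area. With the peaks split by area into 10 groups of equal size, it was 42.1% in the lowest group, 16.3% in the fifth, 3.31% in the eighth and 0.650% in the ninth. In the highest group it was 0.00866%, which is 2 peaks of 23089. The strongest site found only in YAP5SA ranked 22730th by area among all YAP5SA peaks. Being found in no other list was therefore mostly a property of peaks near the caller's threshold.

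**Figure D1:**
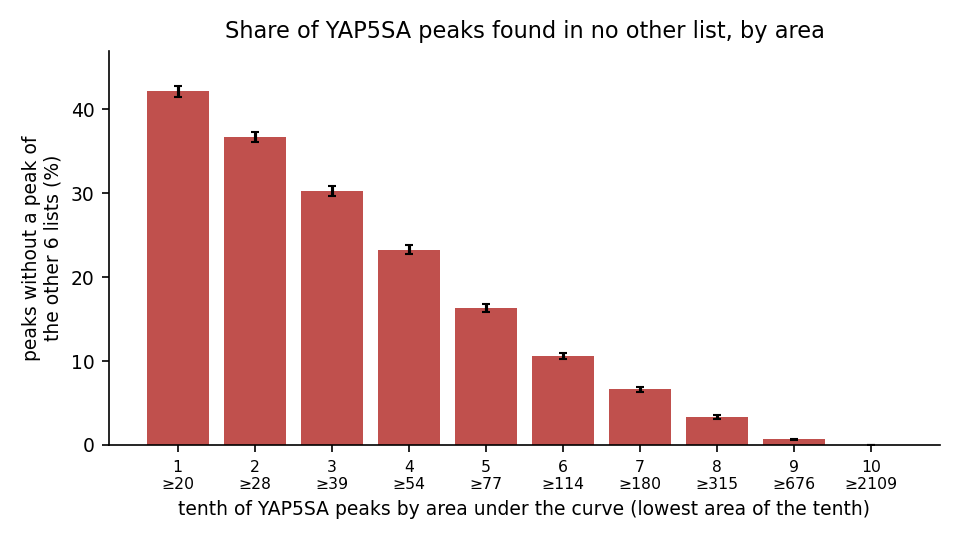
Share of YAP5SA peaks without a peak of the other 6 lists (percent) against the group of the list by area (10 groups of equal size), with the lowest area of each group under its number and Wilson 95% intervals as bars. The share falls from 42.1% in the lowest group to 0.650% in the ninth and 0.00866% in the highest.

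A small group of the sites was strong. By summit −log10 p, 20391 sites (52.0%) lay below 4, 15229 (38.8%) from 4 to 5, 2604 (6.64%) from 5 to 6 and 1018 (2.59%, 2.44% to 2.76%) at 6 or more. Of all YAP5SA peaks, 30.1% reached 6. By width, 20746 sites were under 100 bp, 13315 from 100 to 200 bp, 4962 from 200 to 500 bp and 219 at 500 bp or more.

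Sites of that strength were more frequent among those found only in YAP5SA than among the sites of any other single list. A summit of 6 or more was reached by 226 of 30025 sites found only in YAP-TFE3 (0.753%, 0.661% to 0.857%). Among 34791 sites found only in TAZ-CAMTA1 there were 50 (0.144%), and among 18298 found only in TAZ4SA there were 43 (0.235%). CAMTA1 had 11, EV 2 and TFE3 0 of 1522 sites. An area of 500 or more was reached by 334 sites found only in YAP5SA, 103 only in YAP-TFE3, 11 only in TAZ-CAMTA1 and 6 only in TAZ4SA. The lists are not scaled to each other, so the same was asked within each list's own highest 30% of peaks by summit. Of these, 1009 of 69266 YAP5SA peaks were in no other list (1.46%, 1.37% to 1.55%), against 126 of 70738 in YAP-TFE3 (0.178%, 0.150% to 0.212%) and 45 of 45811 in TAZ4SA (0.0982%, 0.0734% to 0.131%). In TAZ-CAMTA1 there were 25 of 71068. These intervals treat peaks as independent, and the spread between libraries was not measured, so the difference is a description only.

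The 10 sites with the largest area lay on 9 chromosomes and were 485 to 1061 bp wide. The highest was chr22:27077232-27077886, a 655 bp site with an area of 2157 and the highest summit of all, 10.8. Its nearest peak of another list, from CAMTA1, was 1896 bp away, and no further site found only in YAP5SA lay within 20 kb of it. The next was chr11:75176810-75177803, 994 bp wide, with an area of 2138 and a summit of 9.64. It lay 1083 bp from a site in all 7 lists and had 4 other sites of its kind within 20 kb. Next came chr8:104320193-104321253, with an area of 1812 and a summit of 10.2. All 3 lay within 10 kb of a site in all 7 lists.

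The fourth, chr16:87260685-87261383 (area 1800, summit 8.96), lay 9444 bp from a site in all 7 lists. It had 3 further sites found only in YAP5SA within 20 kb, and every list had 6 to 9 peaks in the 40 kb window around it. The next were chr1:228727836-228728675 (area 1744, summit 8.64) and chr12:97272412-97272896 (area 1710, summit 9.36), which had 6 and 11 further sites found only in YAP5SA within 20 kb. Around the chromosome 12 site the 40 kb window held 18 YAP5SA peaks and none of EV or TFE3. Around the chromosome 1 site it held 10 YAP5SA peaks, 3 of TAZ4SA and 1 of each of the other 5 lists. The remaining 4 of the 10 were chr14:24728526-24729104 with an area of 1410, chr7:1843120-1843950 with 1371, chr1:207261523-207262433 with 1365 and chr3:70330661-70331160 with 1334. The chromosome 3 site was the most isolated: the nearest site in all 7 lists was 280369 bp away, and its 40 kb window held 1 other peak, from YAP-TFE3. By summit, 4 of the 5 highest sites were among these 10, and the other was chr21:29800052-29800348 with an area of 953 and a summit of 9.88. In the 40 kb windows around the 20 sites of largest area, YAP5SA had 176 peaks, TAZ-CAMTA1 93, CAMTA1 92, YAP-TFE3 85, TAZ4SA 71, EV 59 and TFE3 51. The YAP5SA count includes the sites themselves and the further sites found only in YAP5SA in those windows. By the rule no other list shares these, so nothing is read from the higher YAP5SA count.

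The edge of the rule passed through peaks that looked alike on both sides. The site just inside, chr8:142610196-142610505, was 310 bp wide with an area of 314, and it touched a YAP-TFE3 peak without sharing a base. The peak just outside, chr8:33073445-33073548, was 104 bp wide with an area of 139 and shared 1 bp with a YAP-TFE3 peak. Within 10 bp of another list's peak there were 345 sites on the inside, 28 of them touching, with a median area of 38.8. On the outside, 382 YAP5SA peaks overlapped other lists by 10 bp or less, with a median area of 36.6.

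The sites were not spread over chromosomes as the other YAP5SA peaks were. Chromosome 13 had the highest share, with 2005 of 7942 YAP5SA peaks found in no other list (25.2%), and chromosome 5 followed with 5360 of 23367 (22.9%). Chromosome 19 had the lowest, with 637 of 6621 (9.62%). The 7365 sites on chromosomes 5 and 13 were 18.8% of the 39242, while these chromosomes held 13.6% of all YAP5SA peaks and 17.4% of the sites of all single lists together. On the remaining chromosomes 31877 of 199577 YAP5SA peaks (16.0%) were in no other list.

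Among sites found only in YAP5SA, the excess on chromosomes 5 and 13 was seen in the weak sites. Of 35620 sites with a summit below 5, 6941 (19.5%, 19.1% to 19.9%) lay on these chromosomes. Of 3622 with a summit of 5 or more there were 424 (11.7%, 10.7% to 12.8%), and of the 1018 at 6 or more there were 114 (11.2%, 9.41% to 13.3%). Below a summit of 5 the share was 34.3% among sites found only in EV and 31.0% among those found only in TAZ4SA. It was 12.8% for CAMTA1, 11.6% for TFE3, 11.3% for YAP-TFE3 and 10.7% for TAZ-CAMTA1. The weak sites of YAP5SA thus lay between these sets in where they fell. At a summit of 5 or more the share stayed high in EV, at 47.2% of 123 sites, and in TAZ4SA, at 33.2% of 763. It was 8.55% for CAMTA1, 9.30% for TAZ-CAMTA1 and 12.6% for YAP-TFE3. At 6 or more the other sets are small. There the share was 15.9% of 226 sites found only in YAP-TFE3, 16.0% of 50 found only in TAZ-CAMTA1 and 18.6% of 43 found only in TAZ4SA.

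**Figure D2:**
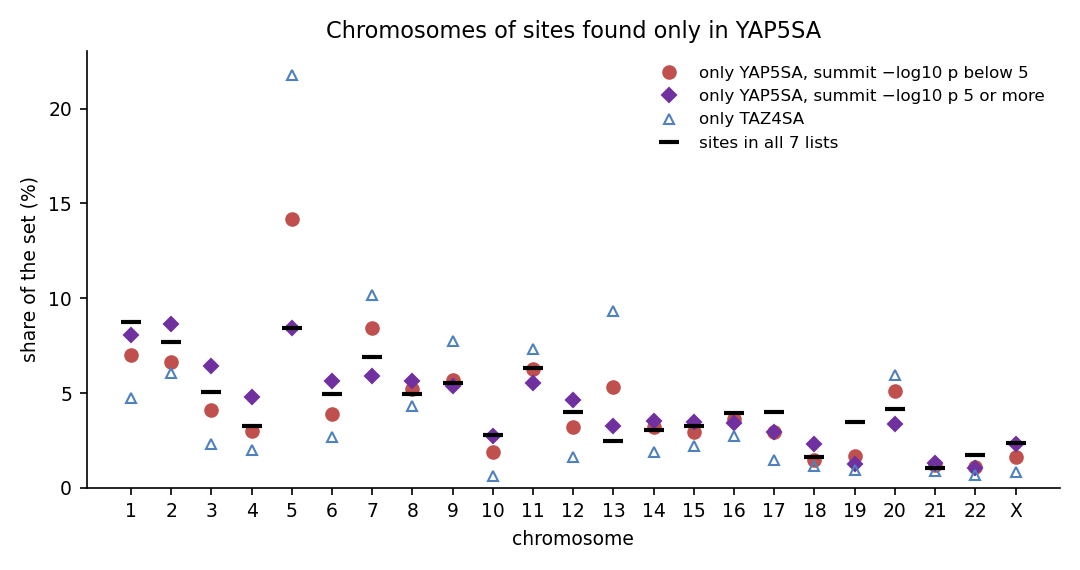
Share of each set of sites (percent) on each chromosome from 1 to 22 and X, for sites found only in YAP5SA with a summit −log10 p below 5 and of 5 or more, sites found only in TAZ4SA and sites in all 7 lists. On chromosomes 5 and 13 the weak YAP5SA sites and the TAZ4SA sites stand above the sites in all 7 lists, and the strong YAP5SA sites stand below the weak ones.

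In windows of 1 Mb the sites piled up in a few places. Of 2814 windows with any peak, 2576 held a site found only in YAP5SA, with a median of 10 and a 95th percentile of 42. The 3 fullest were 98 to 99 Mb of chromosome 13 with 114 sites among 533 YAP5SA peaks, 101 to 102 Mb of chromosome 13 with 112 among 471, and 130 to 131 Mb of chromosome 5 with 110 among 401. The longest run of windows with 60 or more sites each, a measure chosen after the values were seen, was 13 windows from 91 to 104 Mb of chromosome 13, with 1152 sites. The next longest were 3 windows. EV peaks were dense in the chromosome 13 run too, with a median of 355 per window. The 5% of windows with the most EV peaks, 141 windows with 176 or more, held 18.5% of the sites and 18.9% of all YAP5SA peaks. They held 7.48% of the sites with a summit of 5 or more, against 15.1% of all YAP5SA peaks of that strength, and 4.32% of the sites at 6 or more, against 14.0%. The rule itself bars overlap with EV peaks, so nothing is read from these shares. The part of EV peak density in the placing of the weak sites was not tested.

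Sites found only in YAP5SA lay farther from chromatin open under every vector than YAP5SA peaks shared with 1 to 5 other lists did. They lay nearer to it than sites found only in TAZ4SA did. The distance to the nearest of the 60372 sites in all 7 lists had a median of 7455.5 bp, with quartiles of 1920 and 22688 bp. Within 1 kb were 7069 sites (18.0%, 17.6% to 18.4%), where 23.0% of all sites in 1 to 6 lists were that near. Farther than 100 kb were 2210 (5.63%), against 4.34% of all sites in 1 to 6 lists. YAP5SA peaks shared with 1 to 5 other lists had medians of 4827 to 5844 bp. Among single lists the median was 4260 bp for TAZ-CAMTA1, 7394 bp for YAP-TFE3 and 9766 bp for TAZ4SA, and 27.1%, 21.2% and 12.3% of these sites lay within 1 kb. YAP5SA thus stood between the TAZ-CAMTA1 and TAZ4SA sets and close to YAP-TFE3 in its median.

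**Figure D3:**
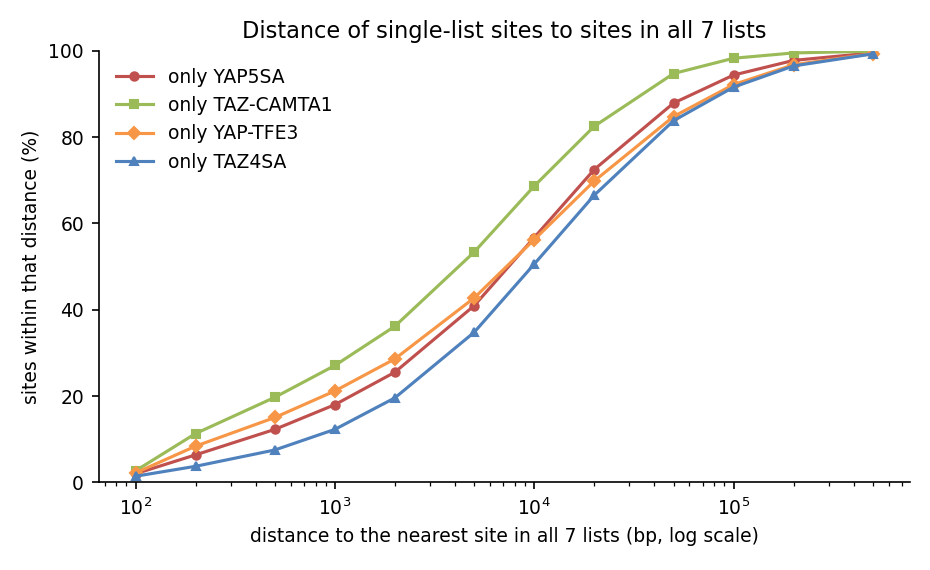
Share of sites (percent) within a given distance of the nearest site in all 7 lists (bp, log axis), for sites found only in YAP5SA, TAZ-CAMTA1, YAP-TFE3 or TAZ4SA. The YAP5SA line runs below TAZ-CAMTA1 and above TAZ4SA over most distances, with 18.0% of its sites within 1 kb.

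The distance was larger for strong sites. The median was 7227 bp below a summit of 4, 7132 bp from 4 to 5, 10072 bp from 5 to 6 and 12426.5 bp at 6 or more. At 6 or more only 9.14% (7.52% to 11.1%) lay within 1 kb. The 226 sites of that strength found only in YAP-TFE3 lay much farther away, at a median of 46684 bp. The 43 in TAZ4SA were at 24935 bp and the 50 in TAZ-CAMTA1 at 8079 bp. Counted to a peak of any other list, the sites found only in YAP5SA had a median distance of 589 bp, and 59.2% had such a peak within 1 kb. At a summit of 6 or more the median was 2039 bp and the share 38.3%. Most sites thus had an edge of another vector's peak within 1 kb, and most of the strong ones did not.

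Which list came nearest to the sites depended on how the lists were compared. As deposited, the median distance of the 1018 sites at 6 or more was 3896.5 bp to a YAP-TFE3 peak, 3970 bp to CAMTA1, 4373.5 bp to TAZ-CAMTA1, 4990 bp to TAZ4SA, 6655.5 bp to TFE3 and 7562 bp to EV. The lists differ in length, so each was also cut to its strongest 152702 peaks by summit. That is the full length of the TAZ4SA list, which alone kept all its weak peaks. With this cut 24.0% of the 1018 sites at 6 or more had a TAZ4SA peak within 1 kb, against 17.9% for CAMTA1, 15.6% for YAP-TFE3, 14.9% for TAZ-CAMTA1, 13.6% for TFE3 and 10.7% for EV. Over all 39242 sites the cut lists gave 32.2% for TAZ4SA, 30.5% for CAMTA1, 30.1% for TAZ-CAMTA1, 29.2% for YAP-TFE3, 27.0% for EV and 25.9% for TFE3. The lists as deposited gave 41.1% for TAZ-CAMTA1 and 39.6% for YAP-TFE3, with CAMTA1 between them, all above the 32.2% for TAZ4SA. A different measure was taken for sites that YAP5SA shared with 1 other list, their own nearness to strong sites found only in YAP5SA. Of 3675 sites in YAP5SA and TAZ4SA alone, 201 (5.47%, 4.78% to 6.25%) lay within 20 kb of a site found only in YAP5SA with a summit of 6 or more. With CAMTA1 it was 3.46% of 3381, with TAZ-CAMTA1 3.06% of 4702, with YAP-TFE3 2.88% of 4096 and with EV 2.09% (1.47% to 2.97%) of 1432. With TFE3 it was 1.70% of 235, and over all such 2-list sites it was 3.50%. Of the 38224 sites found only in YAP5SA with a lower summit it was 4.40% (4.20% to 4.61%).

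The share of sites that came in groups depended on the peaks counted. A cluster was a run of sites in which any 3 neighbours lay within 20 kb. There were 3988 clusters with 16735 sites, 42.6% of all (42.2% to 43.1%). That share was 21.8% with lists cut to equal length by summit, 14.7% with a summit of at least 5 and 11.9% when peaks up to 500 bp apart were merged. Of these clusters 1972 had 3 sites and 122 had 10 or more, of which 60 were on chromosomes 5 and 13. Sites inside and outside clusters were alike in strength, with median areas of 41.9 and 40.5 and median summits of 3.99 and 3.96. By the same definition 41.3% of the sites found only in TAZ-CAMTA1 were in clusters, 35.5% for EV, 34.3% for TAZ4SA, 31.3% for YAP-TFE3 and 22.7% for CAMTA1. A larger set of sites is denser along the genome, so these shares cannot be compared directly between sets of different size.

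The cluster with the most sites, at chr20:59690658-59813324, held 38 in 122667 bp. All lists had peaks within it, from 71 of YAP5SA and 36 of CAMTA1 to 14 of EV and 8 of TFE3. The next, at chr5:167153604-167241616, held 26 sites and differed in its company: YAP5SA had 42 peaks and TAZ4SA 19, while YAP-TFE3 had 5, CAMTA1 4, and EV, TFE3 and TAZ-CAMTA1 1 each. The third, at chr13:101605875-101713111, held 25 sites inside the peak-dense stretch of chromosome 13, with 57 YAP5SA, 45 TAZ4SA, 42 EV and 41 YAP-TFE3 peaks. Its highest summit was 4.94, below those of the chromosome 20 and 5 clusters at 6.29 and 6.30.

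The 10 clusters with the largest summed area, a ranking chosen after the values were seen, were mixed. They included the chromosome 20 and 5 clusters just named, and one at chr7:134451543-134519048 with 20 sites beside 69 peaks of other lists. Those on chromosomes 11 and 9 held 34 and 29 peaks of other lists. The rest, with 12 or fewer, are described. They were picked for few peaks of other lists, so the lack of EV peaks in them is not a result. At chr12:97240291-97283992, 13 sites summed to an area of 2925. YAP5SA had 19 peaks there, TAZ4SA 4, CAMTA1 3, YAP-TFE3 3, TAZ-CAMTA1 2, and EV and TFE3 none. At chr1:228727836-228743472, 7 sites summed to 2754, and the only peaks of another list were 2 of TAZ4SA. At chr16:87253262-87263637, 4 sites summed to 2156 with 1 CAMTA1 peak beside them. At chr21:29791545-29809169, 7 sites in 17625 bp summed to 2066, and no other list had a peak. The nearest site in all 7 lists was 317103 bp from its strongest member. At chr4:77368498-77380924, 4 sites summed to 2026, beside 1 peak each of TAZ4SA, CAMTA1 and TAZ-CAMTA1.

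**Figure D4:**
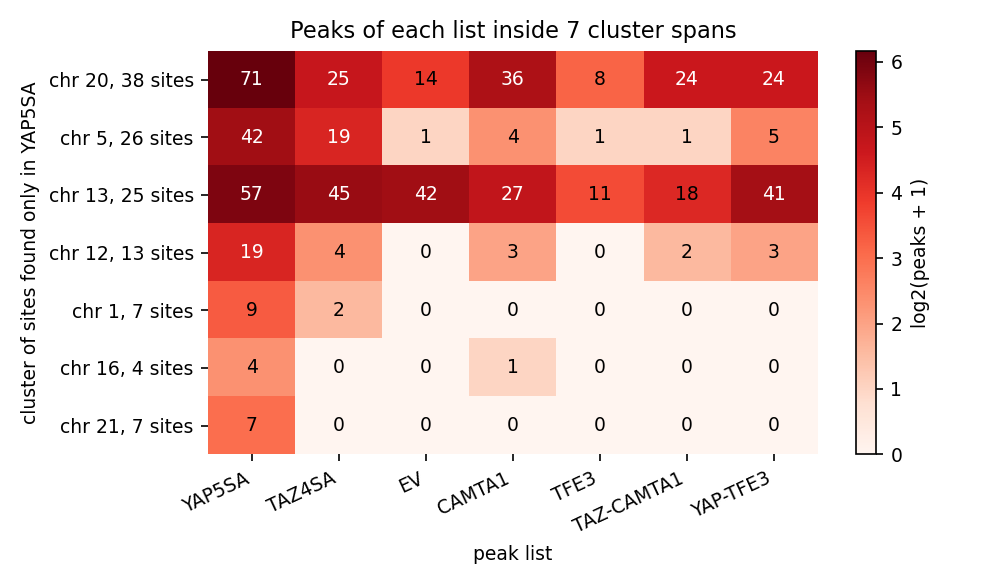
Number of peaks of each of the 7 lists (columns) inside the spans of 7 clusters of sites found only in YAP5SA (rows, named by chromosome and number of such sites), with colour as log2(peaks + 1). The chromosome 13 cluster has 42 EV peaks, whereas the chromosome 12, 1, 16 and 21 clusters, picked for few peaks of other lists, have none.

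In all, 441 of the 3988 clusters (11.1%, 10.1% to 12.1%) held no peak of another list, with 1467 sites among them and 28 clusters of 5 or more. The share was 12.4% (11.1% to 13.8%) of 2357 clusters of sites found only in YAP-TFE3, 8.20% of 1353 for TAZ4SA and 5.73% (5.01% to 6.56%) of 3470 for TAZ-CAMTA1. Sites in such empty clusters had a median area of 53.4, above the 41.9 of clustered sites overall. Of the empty clusters 63 (14.3%) lay on chromosomes 5 and 13, against 23.5% of all clusters. A TAZ4SA peak with no EV peak was found in 425 clusters, and an EV peak with no TAZ4SA peak in 282, although the EV list is the longer. Over all clusters, 24.9% had no TAZ4SA peak and 28.5% no EV peak. That share was lower for CAMTA1 (21.04%), TAZ-CAMTA1 (21.99%) and YAP-TFE3 (22.9%), whose lists are longer, and was 33.5% for TFE3. The cluster spans held 9.53% of all TAZ4SA peaks and 9.1% of all EV peaks. No particular nearness to TAZ4SA is read from these counts.

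Sites in all 7 lists had larger YAP5SA areas relative to EV where strong sites found only in YAP5SA lay near them. For this the 60372 sites in all 7 lists were grouped by the number of sites found only in YAP5SA with a summit of 5 or more within 20 kb, and the area of YAP5SA was set against that of EV. Areas of different lists are not scaled to each other, so only the shift between groups is described. The median over all these sites was 0.40 on the log2 scale. By the rule, each neighbour has a YAP5SA peak and no EV peak. The grouping thus uses the lists being compared, and no conclusion is drawn from the shift. With no strong neighbour the median log2 ratio was 0.38 over 55502 sites (quartiles −0.01 and 1.21). With 1 it was 0.75 over 4297 sites (0.16 and 1.88), with 2 it was 0.88 over 466 sites (0.19 and 2.20) and with 3 or more it was 1.50 over 107 sites (0.45 and 2.67). The groups overlapped widely, as their quartiles show. On each of 23 chromosomes the median with 1 or more such neighbours was above that with none, by 0.06 to 0.72. The same rule set the groups on every chromosome, so counts of chromosomes here and below are descriptions only. Around the same strong YAP5SA neighbours the ratio to EV was also higher on 21 of 23 chromosomes for TAZ-CAMTA1, 20 for YAP-TFE3 and 20 for TAZ4SA. When neighbours of any strength were counted, the median moved from 0.32 with none to 0.58 with 3 or more, and without chromosomes 5 and 13 it moved from 0.32 to 0.65. Both fusion lists showed a shift of the same direction beside their own single-list sites. From none to 3 or more such neighbours, the TAZ-CAMTA1 ratio to EV moved from 1.18 to 1.36 and the YAP-TFE3 ratio from 1.23 to 1.43. Beside sites found only in TAZ4SA, the TAZ4SA ratio to EV changed little and not steadily. It was −0.65 with none, −0.63 with 1, −0.67 with 2 and −0.59 with 3 or more.

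The other vectors were set against the same EV list, so these comparisons share it and are given side by side. From no strong neighbour to 3 or more, the median log2 ratio to EV moved from −0.66 to −0.01 for TAZ4SA, from 1.04 to 1.52 for CAMTA1, from 0.09 to 0.38 for TFE3, from 1.25 to 1.43 for TAZ-CAMTA1 and from 1.29 to 1.62 for YAP-TFE3. Every list had a higher ratio with 3 or more, and the median EV area itself was lower beside the strong sites, at 611 with 1 neighbour against 777 with none. The median areas of CAMTA1, TFE3, TAZ-CAMTA1 and YAP-TFE3 were also lower with 3 or more than with none. Those of YAP5SA and TAZ4SA were higher. Against TAZ-CAMTA1 in place of EV, the YAP5SA ratio moved from −0.70 to −0.02 and the TAZ4SA ratio from −1.93 to −1.43. The median TAZ-CAMTA1 area itself fell from 2139 with none to 1546 with 3 or more, while that of TAZ4SA moved from 478 to 550. The TAZ4SA shift uses no YAP5SA area, but the groups were still set by YAP5SA peaks that lack a TAZ-CAMTA1 peak. No conclusion is drawn from it. With 1 or more strong neighbours, the TAZ4SA ratio to TAZ-CAMTA1 was above its value with none on 16 of 23 chromosomes, and the YAP5SA ratio on 22. By chromosome the TAZ4SA shift ran from −0.35 to 0.48. The ratio of YAP5SA to TAZ4SA itself moved less, from 1.15 with none to 1.29, 1.28 and 1.25 with 1, 2 and 3 or more.

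**Figure D5:**
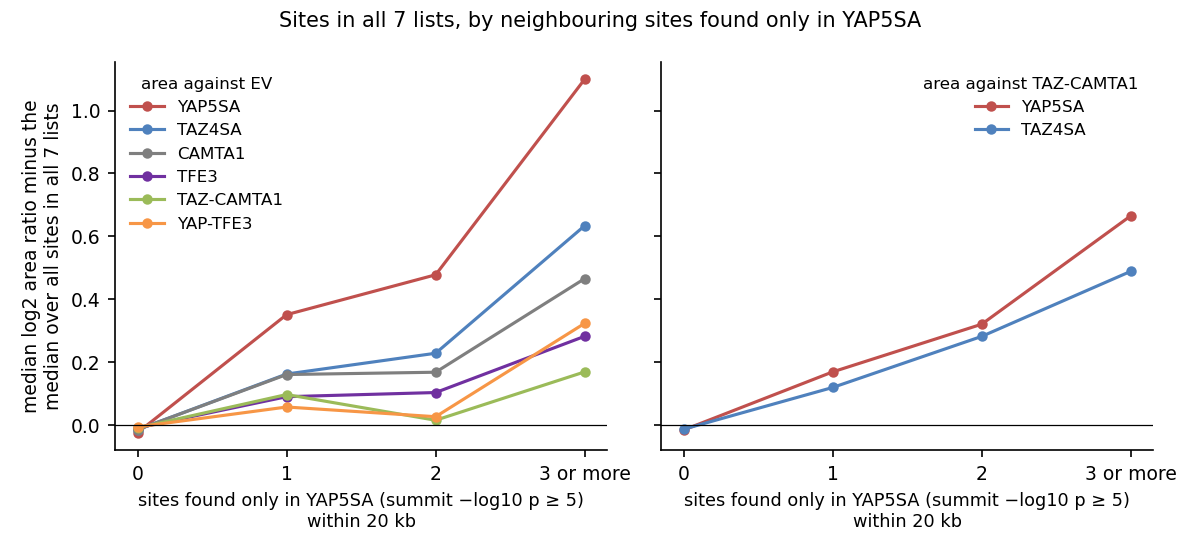
Median log2 ratio of peak areas at sites in all 7 lists, minus the median over all such sites, against the number of sites found only in YAP5SA (summit −log10 p of 5 or more) within 20 kb, with areas set against EV on the left and against TAZ-CAMTA1 on the right. At 3 or more neighbours YAP5SA is highest on the left and TAZ4SA is next. Only YAP5SA and TAZ4SA are drawn on the right, where YAP5SA is the higher. In each panel the groups hold 55502, 4297, 466 and 107 sites from left to right.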

How the data were processed

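SW872 cells with 7 vectors were profiled by ATAC-seq in 20 libraries. According to the study's methods, the authors trimmed reads with NGmerge, aligned them with BWA-MEM to hg19 and called peaks with Genrich set for ATAC-seq, removing duplicates and leaving out artefact regions. The submitters' processing notes name Bowtie and the mouse build mm8 instead, while chromosome names and peak ends in the files are those of human hg19. Calling is described for each replicate, yet 1 list per vector was deposited, and how libraries were combined is not given in the sources used here.

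The deposited lists give peak positions, a score (not used), the signal as area under the curve, and the −log10 p of the summit, all as the authors' caller wrote them. Areas are not normalized between lists. Depth is unknown.

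Peaks sharing 1 bp were merged across lists (Python 3.11.15, numpy 2.4.6, pandas 2.3.3; drawn with matplotlib 3.10.9). Distances run between edges, and coordinates are 1-based. Merging, distances and clusters were tested on simulated peaks. Shares carry Wilson 95% intervals, which treat peaks as independent. Named sites were the 10 of largest area, the 5 of highest summit, the 3 clusters and 3 windows with most sites, and 1 site on each side of the rule, and others are said to be chosen after seeing values. The sites and comparisons were chosen with earlier results of these data known. Alternatives were peak thresholds, lists cut to equal length, fixed windows, a 500 bp merge, autosomes, left-out lists, other cluster widths, and 2 added after seeing the data. Gene lists, gene positions and sequences were not analysed here, as no hg19 annotation was used.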

Additional observations from a re-analysis of the deposited data

How the results depend on the processing

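The 4 summary values (39242 sites, 17.0% of YAP5SA peaks, a median of 7455.5 bp to the nearest site in all 7 lists, 42.6% in clusters) were recomputed under 13 settings, giving 46 values, of which 33 moved past their limits (1.5 times for the count, the 95% interval for the others). Requiring a summit −log10 p of 4 in all lists left 26041 sites, 14.9%, 8115 bp and 30.7%, and of 5 left 11307 sites, 11.1%, 14065 bp and 14.7%. With lists cut to 152702 peaks each there were 18162 sites, 11.9%, 7695 bp and 21.8% by p, and 17219, 11.3%, 7801 bp and 20.3% by area. Replacing each peak by 250 bp on either side of its summit gave 23205, 10.9%, 9106 bp and 18.0%. Merging peaks up to 500 bp apart gave 17801, 8.61%, 11462 bp and 11.9%. Without TFE3 the median was 7061.5 bp, and without EV the values were 17.8%, 6620.5 bp and 45.1%. Clusters within 10 and 50 kb held 25.7% and 68.2%. Chosen after seeing the data, leaving out chromosomes 5 and 13 gave 31877 sites, 16.0%, 7210 bp and 38.4%. The number of sites moved by over 1.5 times with both peak thresholds, both cuts to equal length, the windows around summits and the merging. No paired analysis was possible because each vector has 1 list with no value per library, and for the same reason no library could be left out.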
